A study of Mus musculus with 13 samples.

Results

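The comparison sets splenic CD205+CD8+ dendritic cells with little surface CD103 from mice injected with muramyl dipeptide (MDP) against the same kind of cells from mice injected with PBS. It rests on 7 of the 13 arrays of the series, 3 from MDP CD103 low cells and 4 from PBS CD103 low cells, chosen by their labels, and on 22180 genes with 1 probe set each. The other 6 arrays, 3 MDP CD103 high and 3 PBS CD103 high, entered the fit to estimate the spread and are compared where a value bears on the low gate. Both groups came from C57Bl/6 littermates labelled male, which were given B16 melanoma cells secreting Flt3L under the skin at 6 weeks of age. After 5 days the MDP mice received an intraperitoneal injection of 50 ug of MDP in 100 ul of PBS, and the PBS mice 100 ul of PBS alone. Spleens were taken 24 h later and digested with collagenase D. The sorted CD205+CD8+ cells were parted by surface CD103 into a high and a low gate, whose boundaries the labels do not give. All animals, the PBS mice included, thus carried the Flt3L-secreting tumour, so dendritic cells expanded by Flt3L stand on both sides of the comparison. Whether the arrays stem from separate mice is not stated in the labels, so the spread behind each p-value may be technical in part.

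MDP is a fragment of bacterial peptidoglycan that the cytosolic receptor NOD2 senses. NOD2 signals through the kinase RIPK2 to NF-kB and MAP kinases. CD8+ dendritic cells, also called type 1 conventional dendritic cells or cDC1, engulf dying cells and cross-present what they held to CD8 T cells. CD103 is the αE integrin chain, encoded by Itgae. It pairs with the β7 chain, encoded by Itgb7, and binds E-cadherin on epithelial cells. In mouse dendritic cells CD103 is known to be raised by the growth factor GM-CSF, and TGF-β raises it in T cells.

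The cells matched their label as CD205+CD8+ dendritic cells by the transcripts below. Itgae, which encodes the CD103 of the gate, is not part of this check and is described further on. Among the markers of cDC1, the mean log2 value in MDP and in PBS CD103 low cells was 11.17 and 11.17 for Batf3, 12.22 and 12.23 for Irf8, 9.998 and 9.973 for Xcr1, and 10.56 and 10.61 for Cadm1. For the sorted surface proteins it was 10.37 and 10.39 for Cd8a, and 9.47 and 9.29 for Ly75, which encodes CD205. As a measure of background, the 95th percentile of 1105 olfactory receptor genes was 5.12, and every one of the 24 measured genes of the cDC1 identity list had a mean above it. Clec9a was not analysed here.

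Some arrays stood apart and are given before the results. Xist, which female cells make from their silenced X chromosome, was at 6.27, 4.47 and 11.01 in MDP replicates 1, 2 and 3, and at 11.16, 6.69, 10.98 and 5.74 in PBS replicates 1, 3, 4 and 6. The Y-linked gene Kdm5d ran the opposite way, at 8.20, 7.74 and 4.64 in the MDP arrays and 3.62, 8.17, 3.67 and 8.07 in the PBS arrays. MDP replicate 3 and PBS replicates 1 and 4 therefore went against the label male, and both groups held arrays of both kinds. MDP replicate 1 stood apart in another way: 77 genes lay over 1 log2 unit above all other 6 low-gate arrays and 1 lay as far below, against 0 to 3 such genes in either direction for each of the others. Values are therefore also given without that array for many genes and lists, but not for all that rest on it.

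Itgae was higher after MDP in cells that had been sorted as CD103 low. It (probe set 17252574, Entrez gene 16407, on chromosome 11) had log2 values of 10.68, 10.07 and 9.64 in MDP replicates 1, 2 and 3, against 8.35, 8.17, 7.73 and 7.46 in PBS replicates 1, 3, 4 and 6. The groups did not overlap, and the lowest MDP array lay above the highest PBS array by more than the range of the PBS group. The mean was 10.13 ± 0.52 (SD, n = 3) in MDP and 7.92 ± 0.41 (SD, n = 4) in PBS cells, a log2 difference of 2.21 ± 0.23 (SE), or 4.62-fold with a range of 3.93 to 5.43 at 1 SE to either side. In limma the adjusted p over all genes was 0.00838. The SE, the fold range and this adjusted p rest on a spread pooled with the high-gate arrays. Those varied less for Itgae, with SDs of 0.21 in MDP CD103 high and 0.08 in PBS CD103 high cells. When only the 7 low-gate arrays were fitted, the difference was again 2.21 and the adjusted p was 0.331. An exact two-sided permutation test of this gene over the 7 arrays gave p = 0.0571, the smallest that 3 arrays against 4 allow. From RNA of a whole sorted sample, more cells with Itgae RNA and more of it per cell cannot be told apart.

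No other gene passed the threshold. At an adjusted p under 0.05, 1 of 22180 genes was higher after MDP (0.00451%) and 0 were lower (0%). At an unadjusted p under 0.05, 677 genes were higher (3.05%) and 666 were lower (3.00%). All 3 MDP arrays lay above all 4 PBS arrays in 661 genes (2.98%) and below them in 560 genes (2.52%), and the difference was above 0 in 51.5% of genes. Itgae had the smallest p and the largest difference of all genes tested.

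Itgae alone passed as well with MDP replicate 1 left out. The difference was then 1.93, or 3.82-fold, with an adjusted p of 0.0288 in limma, and Itgae kept the smallest p. It remained the 1 gene called (0.00451%), while 521 genes were higher (2.35%) and 469 lower (2.11%) at an unadjusted p under 0.05, and 52.2% of differences were above 0. The call was lost without MDP replicate 2, at 2.24 with an adjusted p of 0.0787, and without PBS replicate 4, at 2.14 with an adjusted p of 0.0566. It was also lost when only the 7 low-gate arrays were fitted, where the same difference had an adjusted p of 0.331. Within the arrays with high Xist, Itgae was at 9.64 in the 1 MDP array and averaged 8.04 in the 2 PBS arrays. Within the arrays with high Y-linked transcripts it averaged 10.37 in 2 MDP and 7.81 in 2 PBS arrays. The differences were 1.61 with high Xist and 2.56 with high Y-linked transcripts. Their positive sign was fixed in advance, since all MDP arrays lay above all PBS arrays, so this split is no test.

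**Figure D1:**
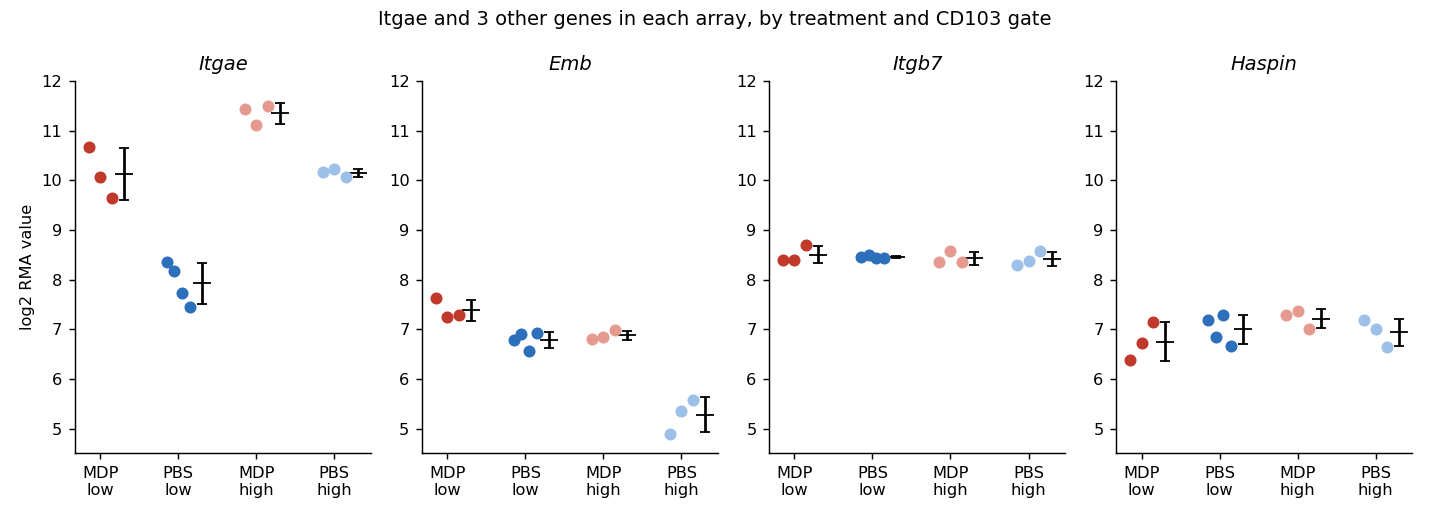
Log2 RMA values of Itgae, Emb, Itgb7 and Haspin in each array, by treatment and CD103 gate. Points are arrays, and the bar beside them is the mean ± SD (n = 3, or 4 for PBS low). The 3 MDP low arrays of Itgae lie between 9.64 and 10.68, above all PBS low arrays and beside the PBS high arrays, which lie between 10.07 and 10.22.

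The high gate puts the size of this difference in context. Itgae averaged 11.35 ± 0.21 in MDP CD103 high cells and 10.15 ± 0.08 in PBS CD103 high cells (SD, n = 3 each), a log2 difference of 1.20 with an adjusted p of 0.0290 in limma, or 2.29-fold. The difference in the low gate exceeded that in the high gate by 1.01 ± 0.34 (SE), which did not pass the test (adjusted p = 0.332). The Itgae level of MDP low cells thus lay near that of PBS high cells, at means of 10.13 and 10.15, although the cells had been sorted into opposite gates. The sort used the protein and the array the RNA, and how the gates were set in each treatment was not tested.

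Genes around the integrin did not show a difference like that of Itgae. Itgb7, the partner chain, was at 8.40, 8.40 and 8.70 in MDP cells and 8.44 to 8.50 in PBS cells, with overlapping arrays and a difference of 0.04 ± 0.09 (SE), or 0.09 without MDP replicate 1. Haspin, a mitotic kinase whose gene lies inside an intron of Itgae, was at 6.38, 6.73 and 7.15 in MDP cells against 6.67 to 7.28 in PBS cells, and its difference was -0.24 ± 0.19. That was -0.06 without MDP replicate 1 and -0.44 without MDP replicate 3. Cdh1, which encodes E-cadherin, differed by -0.07 ± 0.11, and by -0.19 without MDP replicate 1. Of 25 measured genes of a list of CD103 partners and upstream regulators, which leaves Itgae out, 10 had a difference above 0 and the median was -0.04, against 0.00 over all genes. Tgfbr1, a receptor chain for TGF-β, had the lowest difference of that list at -0.51 ± 0.13 (adjusted p = 0.706), with 6.31, 6.79 and 6.27 in MDP cells against 6.72 to 7.16 in PBS cells. Runx3, a transcription factor that binds the Itgae locus in T cells, had the highest at 0.19 ± 0.09, or 0.11 without MDP replicate 1. None of the 25 passed the threshold.

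Embigin, encoded by Emb, is a chaperone of lactate transporters. It was at 7.63, 7.24 and 7.29 in MDP cells, against 6.78, 6.90, 6.56 and 6.92 in PBS cells. The groups did not overlap, but the difference of 0.60 ± 0.15 (SE) did not pass over all genes (adjusted p = 0.706), and it was 0.48 without MDP replicate 1. In the high gate Emb averaged 6.88 in MDP and 5.28 in PBS cells, a difference of 1.60 (adjusted p = 0.00428 in limma).

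The receptor of MDP and its pathway showed no called member. Nod2 was at 7.03, 6.69 and 6.67 in MDP cells against 6.54 to 6.79 in PBS cells, a difference of 0.16 ± 0.10 that shrank to 0.04 without MDP replicate 1. Of 20 measured genes of the NOD2 pathway, 11 had a difference above 0, with a median of 0.01, and 9 with a median of -0.03 without MDP replicate 1. At an unadjusted p under 0.05 there were 0 of the 20, against 3.05% of all genes higher and 3.00% lower. Slc15a2, a peptide transporter, had the highest difference at 0.42 ± 0.43, and Tab3, an adaptor of the kinase TAK1, the lowest at -0.16 ± 0.11. Ripk2 was not analysed here.

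The receptor of GM-CSF was measured by its chains. Csf2rb2, the mouse gene for the IL-3-specific β chain and a close relative of Csf2rb, was at 10.58, 10.27 and 10.14 in MDP cells against 9.89 to 10.09 in PBS cells. Its groups did not overlap, with a difference of 0.31 ± 0.10 (adjusted p = 0.741), or 0.18 without MDP replicate 1. Csf2rb, the common β chain, differed by 0.25 ± 0.12, and by 0.09 without that array. Csf2ra, the α chain, differed by -0.04 ± 0.09, and by -0.08 without it. Because Csf2rb and Csf2rb2 are near-identical, their probe sets may share signal. In the list of the GM-CSF receptor and STAT5 response, 18 of 24 genes had a difference above 0 with a median of 0.09, and 14 with a median of 0.02 without MDP replicate 1. Ccnd2, a cyclin of the G1 phase, led it at 0.74 ± 0.28 (adjusted p = 0.786), with 7.01 in MDP replicate 1, 5.84 and 5.67 in the other MDP arrays and 5.27 to 5.69 in PBS cells, and stood at 0.32 without MDP replicate 1.

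**Figure D2:**
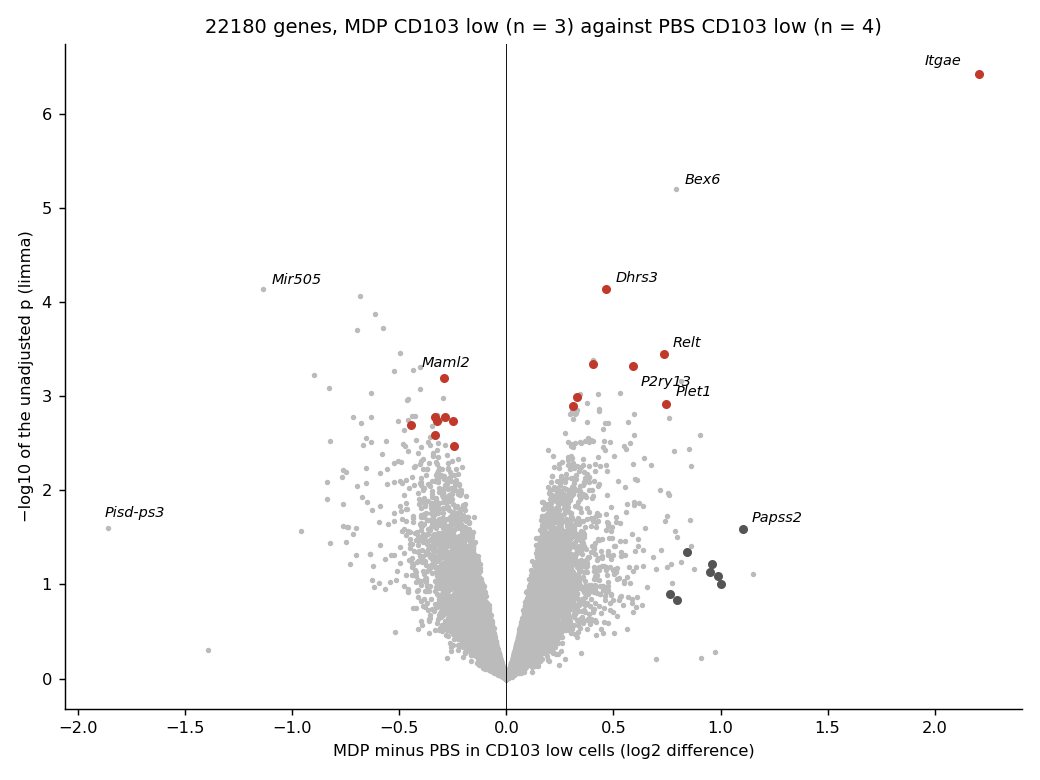
Each grey point is 1 of 22180 genes, placed by its log2 difference of MDP minus PBS in CD103 low cells and by −log10 of its unadjusted p from limma. Red points are the genes above the olfactory background with the smallest p and no overlap of arrays between groups, predicted genes and microRNAs excluded. Dark points are those highest in MDP replicate 1 alone. Itgae stands at 2.21, apart from all others.

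The genes next to Itgae in the order of p are described as values, since none passed. Bex6, of the brain-expressed X-linked family, came second. It was at 4.28, 4.12 and 4.03 in MDP cells and 3.18 to 3.46 in PBS cells, a difference of 0.79 ± 0.11 with an adjusted p of 0.0694. All of these values lay inside the range of the olfactory receptor genes. In the high gate Bex6 differed by 0.79 (adjusted p = 0.00560 in limma). Apart from Itgae, 1 further gene had both a difference of at least 2-fold and groups that did not overlap, and it is named after its values were seen. Mir505, a microRNA gene, was at 5.17, 6.14 and 5.85 in MDP cells against 6.55 to 7.04 in PBS cells, a difference of -1.14 ± 0.20 (adjusted p = 0.381). An array of this kind measures such a gene by a few probes, and the mature microRNA was not measured.

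Above that background, Dhrs3 had the smallest p after Itgae among genes that were higher in every MDP array. It encodes a reductase that turns retinal into retinol. Its values were 8.03, 7.73 and 7.72 in MDP cells and 7.38, 7.37, 7.33 and 7.35 in PBS cells. The PBS arrays spanned less than 0.1 log2 unit, the groups did not overlap, and the difference was 0.47 ± 0.08 (adjusted p = 0.381), or 0.36 without MDP replicate 1. Relt, a member of the TNF receptor family, differed by 0.74 ± 0.15, with 6.84, 6.53 and 6.62 in MDP cells against 5.66 to 6.28 in PBS cells. P2ry13, a receptor for ADP, differed by 0.59 ± 0.13, with 5.82, 5.94 and 5.83 in MDP cells against 5.04 to 5.59 in PBS cells. For both, the MDP arrays lay close together and the PBS arrays were spread more widely.

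Further genes were higher in all MDP arrays at an adjusted p of 0.706. Plet1, a membrane protein first known from placental and epithelial cells, was at 7.55, 7.18 and 6.77 in MDP cells against 6.12 to 6.67 in PBS cells. Vegfa, a growth factor for blood vessels, was at 6.62, 6.32 and 6.34 in MDP cells against 6.09 to 6.15 in PBS cells. Plet1 differed by 0.75 and Vegfa by 0.31, and by 0.56 and 0.21 without MDP replicate 1. Ikbip, named for its binding to the kinase IKKβ, differed by 0.41 ± 0.09, and Zbtb38, which binds methylated DNA, by 0.33 ± 0.08. In the high gate, Relt and Plet1 passed in limma, at 0.83 (adjusted p = 0.0218) and 0.88 (adjusted p = 0.0369). Dhrs3, P2ry13, Vegfa, Ikbip and Zbtb38 did not pass there, with differences from -0.14 to 0.20.

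Other genes were lower in every MDP array. Maml2, a coactivator of Notch signalling, was at 7.60, 7.58 and 7.63 in MDP cells against 7.85 to 7.97 in PBS cells, a difference of -0.29 ± 0.07 (adjusted p = 0.706). Tcf7l2, a transcription factor of the Wnt pathway, was at 7.21, 7.41 and 7.20 in MDP cells against 7.48 to 7.71 in PBS cells. Cacnb2, a subunit of voltage-gated calcium channels, differed by -0.34 ± 0.08, Col25a1, a membrane collagen, by -0.29 ± 0.07, and Sox9, a transcription factor, by -0.25 ± 0.06. Tmprss6, a membrane serine protease, differed by -0.33 ± 0.09, the zinc finger gene Zfp831 by -0.25 ± 0.07 and the long noncoding RNA Lncbate10 by -0.45 ± 0.12, each at an adjusted p of 0.741. Lncbate10 was at -0.29 without MDP replicate 1. Tmprss6, Zfp831 and Lncbate10 lay near the olfactory percentile of 5.12. Their means were 4.86, 5.07 and 4.70 in MDP cells against 5.20, 5.32 and 5.14 in PBS cells. Sox9 averaged 5.23 in MDP and 5.48 in PBS cells, just above that percentile.

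**Figure D3:**
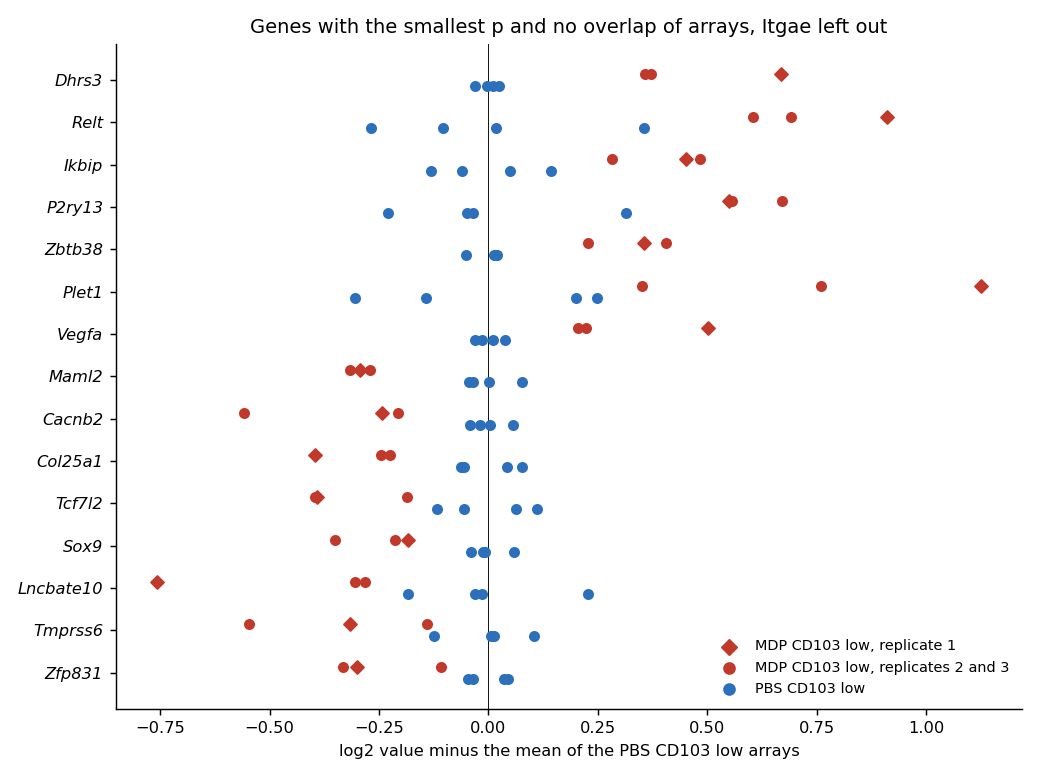
Log2 value of each low-gate array minus the mean of the 4 PBS CD103 low arrays, for 15 genes other than Itgae. They had the smallest p per direction among genes without overlap whose higher group lay above the olfactory percentile. Predicted genes and microRNAs were left out. Diamonds are MDP replicate 1, red circles MDP replicates 2 and 3, and blue circles PBS arrays; for Relt, Plet1, Vegfa, Dhrs3, Col25a1 and Lncbate10 the diamond lies farthest from 0.

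Leaving out MDP replicate 1 brought other genes to the front, beside Itgae, Dhrs3, P2ry13, Maml2, Cacnb2 and Sox9, which stayed there. None but Itgae passed in that fit. The adjusted p in limma was 0.552 for Nccrp1, 0.828 for Ufc1, Fkbp1b and Klri1, and 0.910 for Ifitm6. Nccrp1, a lectin-like F-box protein, was at 6.69, 7.07 and 7.15 in MDP cells against 6.66 to 6.78 in PBS cells. Ufc1, the conjugating enzyme of the ubiquitin-like protein UFM1, was at 8.67, 8.997 and 8.92 against 8.45 to 8.71, and Fkbp1b, a binding protein of the drug FK506, at 7.74, 8.11 and 7.95 against 7.44 to 7.77. Ifitm6, of the interferon-induced transmembrane family, was at 6.11, 5.94 and 5.96 against 6.19 to 6.57, and Klri1, a lectin-like receptor of natural killer cells, at 8.47, 7.96 and 8.03 against 8.24 to 8.53. In Nccrp1, Ufc1, Fkbp1b and Klri1 the first MDP array lay within the PBS range, and in Ifitm6 all MDP arrays lay below it.

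The pseudogene Pisd-ps3 had the widest gap of that kind. It was at 9.92 in MDP replicate 1 and at 7.36 and 6.99 in MDP replicates 2 and 3, against 9.77 to 10.30 in PBS low cells. In the high gate it averaged 7.63 ± 0.48 in MDP and 9.01 ± 1.74 in PBS cells (SD, n = 3 each), and 1 PBS high array was as low as 6.996. The difference in the low gate was -1.86 ± 0.73 over all arrays (adjusted p = 0.793) and -2.77 without MDP replicate 1. When only the other 6 low-gate arrays were fitted, Pisd-ps3 was the 1 gene past the threshold (adjusted p = 0.0116 in limma), and Itgae had an adjusted p of 0.662. As a pseudogene it may share signal with its parent gene.

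Genes of mature dendritic cells were high in 1 MDP array. Mature, CCR7-positive dendritic cells leave the tissue for lymph nodes and carry costimulatory molecules. The mean of the 28 measured genes of their list was 8.55 in MDP replicate 1, 7.50 in both other MDP arrays and 7.40 to 7.64 in PBS arrays. MDP replicate 1 lay above all other 6 arrays in 26 of the 28 genes, against 18.8% of all genes. Ccr7 itself was at 10.37 in that array, at 8.58 and 8.84 in the other MDP arrays and 8.85 to 8.99 in PBS cells. Fscn1, which bundles actin, differed by 0.86 ± 0.37 over all arrays and by 0.25 without that array. The differences of 24 of the 28 genes were above 0 with a median of 0.27, but of 13 with a median of -0.02 without MDP replicate 1. At an unadjusted p under 0.05, 5 of the 28 were higher and 0 lower with all arrays, against 3.05% and 3.00% of all genes. Without that array 0 were higher and 1 was lower, Cd40 at -0.47, against 2.35% and 2.11%.

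The same array carried the highest values of single genes outside the list. Il7r, the IL-7 receptor chain, was at 7.09 there, at 4.06 and 4.38 in the other MDP arrays and 3.66 to 4.44 in PBS cells. Tmem176a, a membrane protein of myeloid cells, was at 9.38 there, at 6.92 and 7.14 in the other MDP arrays and 6.74 to 6.997 in PBS cells. Papss2, an enzyme that makes the sulfate donor PAPS, Anxa3, an annexin, Slc4a8, a bicarbonate transporter, and Asprv1, an aspartic protease, lay between 8.15 and 9.42 there, and the remaining low-gate arrays between 5.22 and 7.40. Markers of other cell types moved with it in part: the mean of 14 cDC2 markers was 5.94 in that array, 5.51 and 5.56 in the other MDP arrays and 5.36 to 5.62 in PBS cells. The mean of 15 monocyte and macrophage markers was 6.32 there, 6.04 and 6.07 in the other MDP arrays and 5.95 to 6.22 in PBS cells. The part of such cells in these results was not tested.

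NF-kB targets followed the same array. The mean of 28 genes was 8.31 in MDP replicate 1, 7.94 and 7.85 in the other MDP arrays and 7.64 to 8.003 in PBS cells. Of the 28, 20 had a difference above 0 with a median of 0.10, and 12 with a median of -0.07 without MDP replicate 1. In 3 of the 28 all MDP arrays lay above all PBS arrays and in 0 below, against 2.98% and 2.52% of all genes. Ptgs2, the inducible cyclooxygenase, had non-overlapping groups, at 6.11, 4.80 and 5.00 in MDP cells against 4.26 to 4.58 in PBS cells. Only its value in MDP replicate 1 lay above the olfactory percentile of 5.12. Its difference was 0.85 ± 0.24 (adjusted p = 0.741), and 0.45 without that array. Bcl2a1a, an antiapoptotic gene of a family of close copies, was at 11.33, 11.29 and 11.06 against 10.87 to 11.04. Nfkbia, the inhibitor that NF-kB induces, differed by 0.02 ± 0.13, and by -0.13 without that array.

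**Figure D4:**
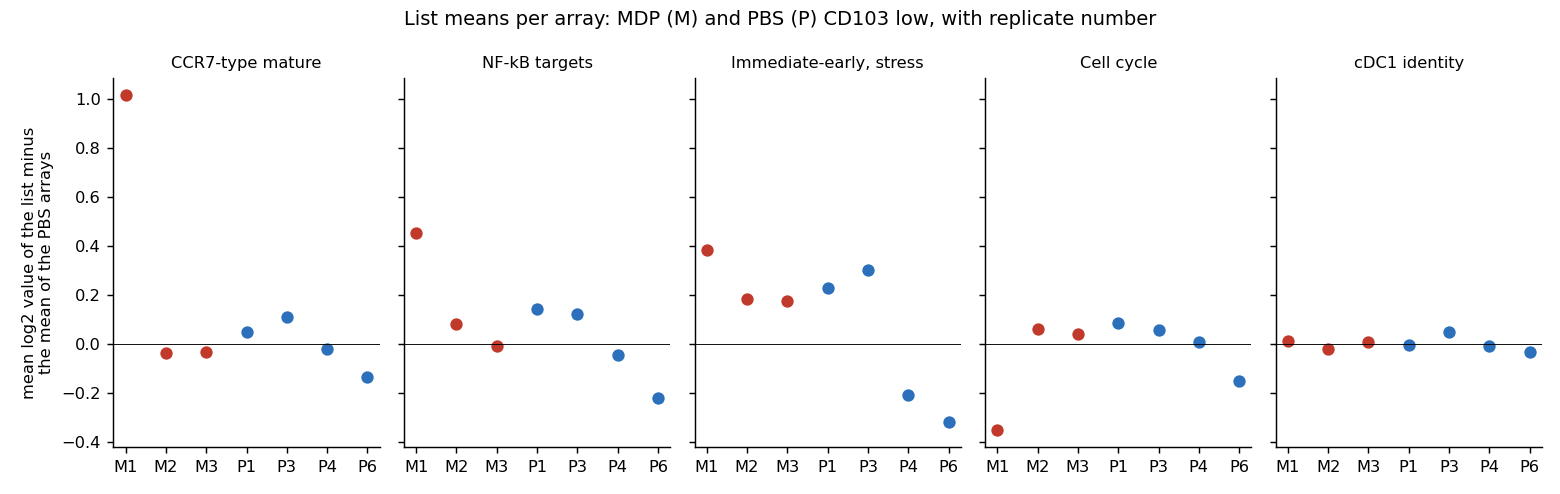
Mean log2 value of 5 gene lists in each low-gate array, minus the mean of the 4 PBS arrays; M1 to M3 are the MDP arrays and P1 to P6 the PBS arrays by replicate number. M1 is highest for the CCR7-type mature list, at 8.55 against 7.40 to 7.64 in PBS arrays, and lowest for the cell cycle list, at 7.96 against 8.16 to 8.40.

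Immediate-early and dissociation stress genes, which respond within minutes to handling and to many stimuli, leaned upward with and without MDP replicate 1. Of 24 genes, 22 had a difference above 0 in both cases, with a median of 0.24 with all arrays and 0.19 without that array. The list means were 10.27, 10.07 and 10.07 in MDP cells and 10.12, 10.19, 9.68 and 9.57 in PBS cells. They overlap, since PBS replicates 1 and 3 lay with the MDP arrays and PBS replicates 4 and 6 lay below. Egr3, a transcription factor of this class, did not overlap, at 8.998, 8.50 and 8.56 in MDP cells against 7.54 to 8.39 in PBS cells, with a difference of 0.61 ± 0.19 (adjusted p = 0.741). Egr3 differed by 0.45 without MDP replicate 1. None of the list passed over all genes.

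Cell cycle genes differed between MDP replicate 1 and the other MDP arrays. The mean of 37 genes was 7.96 there, 8.37 and 8.35 in the other MDP arrays and 8.16 to 8.40 in PBS cells. MDP replicate 1 lay below all other 6 arrays in 24 of the 37 genes, against 19.7% of all genes. With all arrays, 14 of 37 differences were above 0 with a median of -0.06. Without that array 30 were, with a median of 0.07. Birc5, the mitotic protein survivin, was at 6.34 in that array, 7.20 and 7.14 in the other MDP arrays and 7.03 to 7.17 in PBS cells. Pcna, the replication clamp, was at 11.55, 11.61 and 11.59 in MDP cells against 11.34 to 11.60 in PBS cells.

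The low gate was also set against the high gate. In the high gate, 315 of 22180 genes were higher and 88 lower after MDP at an adjusted p under 0.05. The cell cycle list had a median difference of 0.75 there. In the low gate, the 315 genes had a median of 0.00, with 162 above 0. The 88 had a median of -0.04, with 29 above 0, and 51.5% of all genes were above 0. Without MDP replicate 1 the 315 had a median of 0.06 with 229 above 0, and the 88 one of -0.09 with 27 above 0. Of all genes, 52.2% were then above 0. The difference between gates itself passed for 16 genes (0.0721%), all with a lower difference of MDP minus PBS in the low gate and an adjusted p of 0.0486. They are Atad2, Blm, Cdc7, Esco2, Fancd2, Kif18b, Kif4, Mms22l, Mtbp, Ncapg2, Ndc80, Rad18, Rad54l, Rfc5, Rpa2 and Wdhd1. Among them, Cdc7 is a kinase that fires replication origins, Blm and Rad54l act in recombination, and Ndc80 is a protein of the kinetochore.

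Low-gate differences of these 16 genes ran from -0.43 for Esco2, which joins sister chromatids, to -0.02 for Fancd2 of the Fanconi repair pathway. None passed the threshold. The contrast that picked the genes contains the low-gate difference, so its sign in them is no separate support. Without MDP replicate 1, 14 of the 16 stayed below 0, Esco2 at -0.24, while Fancd2 was at 0.04 and Rad54l at 0.03. Esco2 was at 6.15, 6.67 and 6.75 in MDP cells against 6.89 to 6.997 in PBS cells. Kif4, a mitotic kinesin, was at 6.03, 6.13 and 6.38 against 6.41 to 6.79. Neither overlapped. The 16 calls rest on each of several arrays: the count was 2 without MDP low replicate 1 and 10 without MDP low replicate 2. It was 0 without MDP low replicate 3, without PBS low replicate 1, 3 or 4, without any 1 of the 3 MDP high arrays and without PBS high replicate 5 or 6. It was 41 without PBS low replicate 6 and 107 without PBS high replicate 4.

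Lists tied to what the cells are had medians near 0. The cDC1 identity list had a median of 0.00, with 13 of 24 genes above 0, and its means of 10.74, 10.70 and 10.73 in MDP cells lay among the 10.69 to 10.77 of PBS cells. Rab7b, a GTPase of endosomes, had its lowest difference at -0.26 ± 0.09 (adjusted p = 0.744). The antigen presentation list had a median of 0.02, with Ifi30, a lysosomal thiol reductase, highest at 0.26 ± 0.08 and non-overlapping at 11.08, 10.94 and 10.75 against 10.64 to 10.71. The costimulatory genes Cd80 and Cd86 differed by -0.01 ± 0.13 and -0.02 ± 0.06, and by -0.21 and -0.06 without MDP replicate 1. Other leukocyte integrins had a median of 0.02 over 16 genes.

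Interferon-stimulated genes had a median of -0.07 over 31 genes, with means of 7.31, 7.11 and 7.20 in MDP cells and 7.50, 7.07, 7.50 and 6.81 in PBS cells, so the PBS arrays enclosed the MDP arrays. The sign of this median rested on single arrays: it was 0.08 without PBS replicate 1, 0.08 without PBS replicate 4, 0.01 without MDP replicate 2 and -0.17 without PBS replicate 6. The pattern-recognition receptors had a median of 0.05. Ly96, the partner of the endotoxin receptor TLR4, was at 6.32, 6.02 and 5.88 in MDP cells against 5.43 to 5.79, and Tlr1, a receptor for bacterial lipoproteins, at 7.09, 6.35 and 6.27 against 5.57 to 6.36. Ly96 differed by 0.42 ± 0.13 and Tlr1 by 0.59 ± 0.21, and by 0.29 and 0.33 without MDP replicate 1. Of 24 migration and adhesion receptors, 20 had a difference above 0 with a median of 0.11, and 16 with a median of 0.04 without MDP replicate 1. Ccr2, the receptor of monocyte chemokines, led it at 0.75 ± 0.25, with 7.37, 6.04 and 6.90 against 5.87 to 6.26, and was at 0.46 without MDP replicate 1. Cd44, the hyaluronan receptor, was lowest at -0.59 ± 0.21, with 10.74 in PBS replicate 6 and 9.69 to 9.91 in the other PBS arrays, against 9.35, 9.71 and 9.22 in MDP cells.

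Chemokines and cytokines had a median of 0.05 over 31 genes. Ccl3, a chemokine that attracts monocytes and T cells, had the highest difference at 1.15 ± 0.60 (adjusted p = 0.820). Il12a, a subunit of IL-12, had the lowest at -0.24 ± 0.14, or -0.09 without MDP replicate 1. The Il12a values, 3.40 to 3.87 in MDP cells and 3.76 to 4.14 in PBS cells, all lay inside the olfactory range. In the tolerance-associated list, with a median of -0.01 over 22 genes, Lgals1, which encodes galectin-1, was highest and did not overlap, at 9.54, 9.50 and 9.94 in MDP cells against 9.11 to 9.31 in PBS cells. Its difference was 0.41 ± 0.12 (adjusted p = 0.741), and 0.83 in the high gate (adjusted p = 0.00822 in limma).

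Metabolic lists moved by small amounts. Oxidative phosphorylation had a median of 0.06 with 28 of 31 genes above 0, and 0.07 with 26 above 0 without MDP replicate 1. Glycolysis had a median of 0.08 with 16 of 18 genes above 0, and Pfkfb3, which makes an activator of that pathway, led it at 0.37 ± 0.17, but stood at -0.02 without MDP replicate 1. Cholesterol synthesis had a median of 0.05, or -0.05 without MDP replicate 1, and Hsd17b7 of that pathway was lowest at -0.28 ± 0.10. The apoptosis and p53 list had a median of 0.06 over 22 genes. Cdkn1a, the inhibitor p21, was at 9.61 in MDP replicate 1, 8.39 and 8.52 in the other MDP arrays and 7.88 to 8.53 in PBS cells.

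Markers of cells that the sort should remove gave no called gene in any list. Of all 22180 genes only Itgae was called (0.00451%). At an unadjusted p under 0.05 in limma, 3 of 12 B cell markers were lower and 2 of 14 cDC2 markers higher. With all arrays, the plasmacytoid, monocyte and macrophage, neutrophil and natural killer lists had 1 higher each. The T cell, erythroid and melanoma lists had 0. Over all genes 3.05% were higher and 3.00% lower. Without MDP replicate 1, 2 of 11 natural killer markers, 1 cDC2 marker and 1 plasmacytoid marker were higher. In that fit 1 B cell, 1 plasmacytoid and 1 monocyte and macrophage marker were lower, and the other marker lists had 0. Over all genes 2.35% were then higher and 2.11% lower. With all arrays, list medians were 0.06 for plasmacytoid dendritic cells, 0.10 for cDC2 and -0.03 for monocytes and macrophages. Medians were 0.00 for neutrophils and their precursors and -0.02 for B cells. They were 0.04 for T cells, -0.04 for natural killer cells, -0.03 for erythroid cells and -0.02 for B16 melanoma. The number of markers with a mean above the olfactory percentile was 11 of 13 for plasmacytoid dendritic cells, 11 of 14 for cDC2, 10 of 15 for monocytes and macrophages and 5 of 11 for natural killer cells. It was 2 of 14 for neutrophils, 4 of 12 for B cells, 4 of 10 for T cells, 0 of 8 for erythroid cells and 3 of 11 for melanoma. Klk1, a kallikrein counted among plasmacytoid markers, was at 3.13, 4.14 and 4.70 in MDP cells against 2.97 to 3.32 in PBS cells, all inside the olfactory range.

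**Figure D5:**
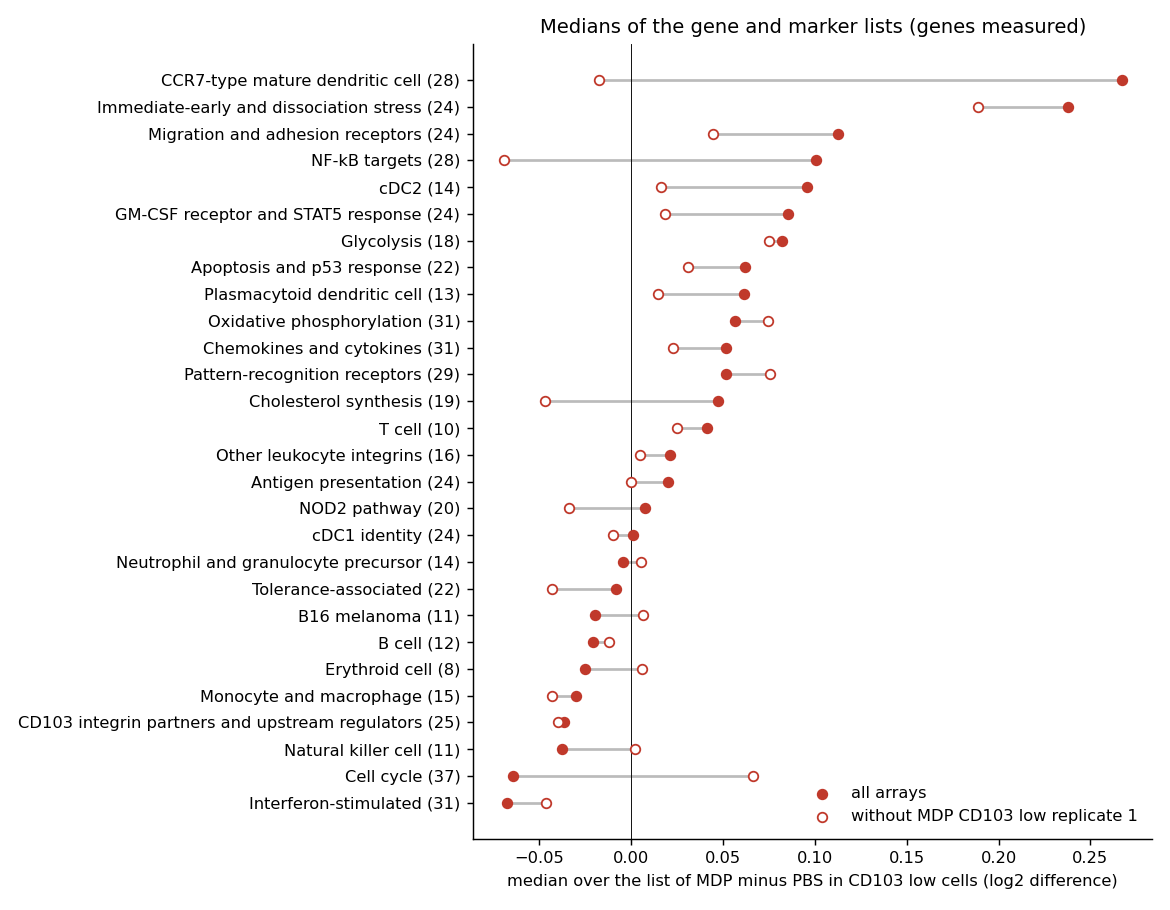
Median over each gene or marker list of the log2 difference MDP minus PBS in CD103 low cells, with all arrays (filled) and without MDP replicate 1 (open); the number of genes measured is in brackets. The mature dendritic cell list is at 0.27 with all arrays and -0.02 without that array, and the immediate-early list at 0.24 and 0.19.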

How the data were processed

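The authors deposited 1 log2 value per probe set and array, obtained with RMA in Affymetrix Expression Console, per the submitters' processing notes; the sources used here give no version of either. RMA makes the arrays' distributions alike, so a shift shared by most genes is removed. Array medians lay between 5.00 and 5.13. Pre-amplification started from 400 ng of RNA, per the labels. Of 41345 probe sets, 23521 had 1 symbol, 1814 several and 16010 none; for 1082 of the 22180 genes the probe set with the highest mean was kept. The RefSeq gene table held the Entrez IDs of 21994 genes and altered 0 symbols. The genome build was not given in the sources used here. Signal over background could not be read from detection calls, so olfactory receptor genes served instead. The number of arrays limits the precision (median SE 0.10).

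With limma 3.58.1 in R 4.3.3, lmFit and eBayes fitted 1 mean per group over all 13 arrays (9 residual and 3.86 prior degrees of freedom). Tests were two-sided, adjusted by Benjamini-Hochberg over all genes, at a threshold of 0.05. The steps were tested on simulated data. Tables and plots used Python 3.11.15, pandas 2.3.3, numpy 2.4.6 and matplotlib 3.10.9.

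The comparison, gene lists and naming rules were chosen with earlier results of these data known, so they are no independent support. Named were genes past the threshold; per direction the 8 with the smallest p and no overlap between groups, and the 6 with the smallest p without MDP replicate 1, all with the higher group above the olfactory percentile; the genes where MDP replicate 1 departed most; the 2 smallest p per direction of each list; and genes fixed by name. Predicted genes, microRNAs and receptor segments were counted but not named by size; Mir505, Bex6, Gm7135, the 16 genes that differed between gates and the highest and lowest member of a list were named after their values were seen. So were Fscn1, Nfkbia, Cd80 and Cd86.

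Replicate numbers recur across groups without a stated meaning. MDP and PBS low arrays of the same number did not deviate together (r = -0.06 for number 1 and -0.24 for number 3) and differed in Xist class, so they were not taken as pairs. Arrays of the same treatment and number in the 2 gates correlated at 0.20 to 0.37 and shared their Xist class in 4 of 4 pairs. Across treatments, PBS low and MDP high arrays numbered 4 correlated at 0.45, MDP high and PBS high arrays numbered 4 at 0.12, and PBS low and MDP high arrays numbered 3 at 0.01.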

Additional observations from a re-analysis of the deposited data

Results flagged for a closer look

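The difference between gates, MDP minus PBS in CD103 low cells minus the same in CD103 high cells, passed for 16 genes at an adjusted p of 0.0486 in limma, all negative, on the log2 scale. It was -1.43 for Esco2, -1.39 for Ndc80, -1.36 for Atad2, -1.27 for Kif4 and -1.21 for Blm. It was -1.12 for Fancd2, -1.12 for Ncapg2, -1.05 for Rad54l, -1.04 for Mms22l and -1.03 for Cdc7. It was -0.97 for Wdhd1, -0.93 for Kif18b, -0.93 for Mtbp, -0.80 for Rad18, -0.80 for Rpa2 and -0.78 for Rfc5.

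Of 61 genes and lists examined for an array far from the others of the PBS group of 4, which chance gives in about 1 of 20 groups, 3 had one. Zbtb38 was at 6.60 in PBS replicate 1, lower than in PBS replicates 3, 4 and 6, where it reached 6.67. The list of pattern-recognition receptors averaged 6.97 in PBS replicate 6, below the others at 7.07 to 7.08, and that of the natural killer cell markers was 5.16 in PBS replicate 6, above the others at 4.95 to 4.98.

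Of 17824 probe sets without a single gene symbol, which the comparison did not use, 3 passed when adjusted over these alone (adjusted p = 0.042 in limma). The log2 differences were -0.83 for probe set 17201129, -0.96 for 17207311 and 1.16 for 17281348. Over all probe sets their adjusted p was 0.073, and without MDP replicate 1 none passed (adjusted p from 0.159 to 0.208). At an unadjusted p under 0.05, 472 of these probe sets were higher (2.65%) and 1087 lower (6.10%), or 387 and 641 without that array.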

How the results depend on the processing

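Itgae was higher after MDP in every alternative run. Leaving out or weighting arrays could not turn that sign, since the groups did not overlap. Leaving out a high-gate array kept the difference of Itgae at 2.21. With 1 array left out its difference ranged from 1.93 to 2.45 and the count of genes from 0 to 2: 0 without MDP low replicate 2 or PBS low replicate 4, and 2 without PBS low replicate 3 (with Gm7135) or PBS high replicate 6 (with Bex6). The count was 0 and Itgae missed the threshold with only the 7 low-gate arrays (2.21, adjusted p = 0.331), a variance trend and robust fit (2.21, adjusted p = 0.0569), adjustment over all probe sets (2.21, adjusted p = 0.0603) and only arrays with transcripts of the labelled sex (2.56, adjusted p = 0.949, 2 arrays against 2). With the replicate block it was 2.03 (adjusted p = 0.238) and the count 0. A random block of arrays of the same treatment and number, chosen after seeing the data, gave 2 genes, Itgae (2.21, adjusted p = 0.00636) among them. Itgae passed with array weights (1.99), the mean of probe sets, a filter on low values that left 12290 genes, median centring and Xist class as a term (2.19, adjusted p = 0.0266). Since Itgae has 1 probe set, the mean of probe sets left its values unchanged.

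The count of 16 genes that differed between gates ranged from 0 to 107 with 1 array left out. It was 116 with the trend and robust fit, 35 with array weights, 130 with the filter, 41 with the random block, and 0 with the replicate block, with all probe sets and with Xist class as a term. The cause of these changes was not tested. The difference between gates of Itgae passed in none, from 0.73 to 1.25. Without MDP replicate 1, Ly75 (-0.06) and Ccr7 (-0.22) of 32 genes followed through all alternatives and 10 list medians changed sign; so did Birc5 (0.06), Anxa3 (-0.04), Tmem176b (-0.08), Prr11 (0.02), Fancd2 (0.04) and Rad54l (0.03), among others. With 3 arrays against 4, a median SE of 0.10 and no detection calls, differences of genes near the olfactory range are the least certain.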
